A study of Mus musculus with 24 samples.

Results

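Pancreatic acinar cells make and secrete digestive enzymes. The genes described here are 33 genes of that programme, chosen by symbol among the 54532 genes of the count table. They comprise 20 enzyme genes, 8 genes for other granule, inhibitor or endoplasmic reticulum proteins, and 5 transcription factor genes. All 33 were found in the table, and all 33 passed the filter on low counts. RNA was sequenced from 24 mouse samples labelled as pancreatic tumour, collected on day 24, with 6 samples in each of 4 groups. The groups were a control given PBS, a buffered saline, and treated groups that the labels call GEM, IGEL and LIGEL without spelling the names out. The labels give no strain, sex, age, tumour model or cell line, and nothing states that each library of a group is a separate animal. The p-values therefore speak of the spread over these libraries, which may be technical. The sample titles name muscle. The 9 skeletal muscle markers summed to at most 23.7 CPM (counts scaled to 1e6 of the TMM-scaled library total) in 23 libraries and to 282 CPM in IGEL replicate 4, against 999 to 4050 CPM for 14 duct and epithelial markers across the libraries.

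In adult acinar cells the enzymes are stored as inactive precursors in zymogen granules and released into the duct after a meal. PTF1, a complex of PTF1A, a common E protein such as TCF3 or TCF12, and the acinar protein RBPJL, drives transcription of the enzyme genes by binding an E-box next to a TC-box. BHLHA15 (also called MIST1) shapes the secretory apparatus, and NR5A2 works beside PTF1 on enzyme promoters. GATA4 is a zinc finger factor of pancreas development. In bulk samples, fewer acinar cells and less RNA per acinar cell cannot be told apart.

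The table of promoters (250 bases before the RefSeq transcription start, GRCm38.p6) held 26 of the 33 genes. The sequences below are shown because the genes moved together across the libraries and PTF1 and NR5A2 are known to act on enzyme promoters. Ctrb1, Prss1 and Cel are shown for an E-box beside a TC-box, Bhlha15 for an E-box without a TC-box, Cpa1 for a TC-box without either form of the E-box, and Pnlip for neither. Capitals mark 4 motifs on either strand. The first is CACCTG, a form of the E-box. The second is CAGCTG, another form of it. TTTCCC stands for the TC-box, and AAGGTCA for the core of the NR5A2 site.
Ctrb1 (chr8:111691011-111691260, minus strand): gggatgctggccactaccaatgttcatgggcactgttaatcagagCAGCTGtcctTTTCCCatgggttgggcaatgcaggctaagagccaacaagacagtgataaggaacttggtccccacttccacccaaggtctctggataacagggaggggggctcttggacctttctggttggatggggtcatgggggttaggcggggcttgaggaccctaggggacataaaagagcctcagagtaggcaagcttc
Prss1 (chr6:41458680-41458929, plus strand): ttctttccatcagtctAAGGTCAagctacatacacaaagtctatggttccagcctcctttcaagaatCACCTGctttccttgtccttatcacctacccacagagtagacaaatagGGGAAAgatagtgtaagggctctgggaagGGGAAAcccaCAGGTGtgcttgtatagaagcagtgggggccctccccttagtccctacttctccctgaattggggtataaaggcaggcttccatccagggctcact
Cel (chr2:28563404-28563653, minus strand): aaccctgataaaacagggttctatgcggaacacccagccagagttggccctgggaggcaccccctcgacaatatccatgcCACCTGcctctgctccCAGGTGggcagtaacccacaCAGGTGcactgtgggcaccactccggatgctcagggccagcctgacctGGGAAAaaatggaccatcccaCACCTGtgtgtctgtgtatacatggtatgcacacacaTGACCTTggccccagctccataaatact
Bhlha15 (chr5:144190036-144190285, plus strand): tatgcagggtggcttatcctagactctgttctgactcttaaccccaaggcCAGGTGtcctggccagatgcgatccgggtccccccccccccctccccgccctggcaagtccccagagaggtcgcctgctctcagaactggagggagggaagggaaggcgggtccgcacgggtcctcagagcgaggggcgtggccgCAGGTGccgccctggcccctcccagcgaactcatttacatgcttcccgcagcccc
Cpa1 (chr6:30638968-30639217, plus strand): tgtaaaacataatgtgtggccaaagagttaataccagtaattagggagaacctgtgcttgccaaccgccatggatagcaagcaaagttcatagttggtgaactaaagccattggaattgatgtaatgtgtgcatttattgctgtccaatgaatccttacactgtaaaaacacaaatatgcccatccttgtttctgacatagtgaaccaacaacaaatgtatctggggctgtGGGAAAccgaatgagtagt
Pnlip (chr19:58670115-58670364, plus strand): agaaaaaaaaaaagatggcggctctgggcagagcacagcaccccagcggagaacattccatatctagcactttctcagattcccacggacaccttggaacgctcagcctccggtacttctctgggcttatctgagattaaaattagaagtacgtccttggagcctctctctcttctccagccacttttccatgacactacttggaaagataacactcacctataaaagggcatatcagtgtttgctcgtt
Of the 26 promoters, 17 held CACCTG or CAGCTG, against 27.7% of the 32851 promoters in the table, and 15 held CACCTG, against 17.2%. TTTCCC was in 7 of 26 (26.9%, against 21.9% of all promoters), and AAGGTCA was in 4 of 26, against 4.08%. AGATAA, a form of the GATA core, was in 10 of 26, against 9.99%. The general form CANNTG was in 21 of 26, against 66.2%. An E-box of either form together with TTTCCC was found in 6 promoters, those of Cel, Cela1, Cela2a, Ctrb1, Prss1 and Prss2, against 5.91% of all promoters. For Cela2a the RefSeq start lay 155 bases inside the gene of the count table, so its TTTCCC, 84 bases upstream, falls within that gene. The 2 starts also differed by 120 bases for Pla2g1b, 65 for Prss3 and 53 for Rbpjl, and by at most 20 for the others. In Ctrb1, Cela1 and Prss1 the first bases of an E-box and of a TTTCCC lay 10 bases apart, a spacing held by 13 of the 32851 promoters. In Cel they lay 21 bases apart, and 46 promoters of the table had a spacing of 20 or 21. Both spacings were counted after these promoters had been read. Of the motifs searched, the Pnlip window above held AGATAA alone. All motifs were searched on both strands, and CACCTG and CAGCTG are cases of CANNTG. A match describes letters only, and no binding was measured.

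The amount of acinar RNA differed between libraries far more than between groups. Across all 24 libraries the 33 genes took from 0.00634% to 45.1% of the counts, and total counts ranged from 27.1 to 40.5 M (1e6 counts), so depth varied little by comparison. The lowest, median and highest shares were 0.387%, 2.53% and 45.1% in PBS, 0.00665%, 1.64% and 19.2% in GEM, 0.00634%, 1.27% and 11.03% in IGEL, and 0.0159%, 0.896% and 8.79% in LIGEL. The ranges of all 4 groups overlapped, from 0.387% to 8.79%. The extreme library was PBS replicate 5 at 45.1% (Wilson 95% interval 45.1 to 45.1%, counting error only), followed by GEM replicate 6, IGEL replicate 4, LIGEL replicate 4 and PBS replicate 1 at 6.88%. At the other end, 4 libraries held fewer than 200 counts of Cpa1, GEM replicate 1 with 43, IGEL replicate 6 with 60, IGEL replicate 1 with 143 and LIGEL replicate 2 with 190. These are called the 4 thin libraries. Of them, 3 belong to the 6 libraries whose columns in the count table are named A1, A2 or A3, all in treated groups. The labels do not say what these names stand for.

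The carboxypeptidase gene Cpa1, which cleaves residues from the end of peptides, served as the single reference for acinar RNA. Its lowest, median and highest levels were 177, 1192 and 36023 CPM in PBS, 1.26, 711 and 13188 CPM in GEM, 1.69, 617 and 7228 CPM in IGEL, and 5.09, 364 and 4795 CPM in LIGEL. The ranges of all 4 groups overlapped. Ctrb1, which encodes chymotrypsinogen B, reached 1484, 9423 and 144982 CPM in PBS and 17.5, 5331 and 51658 CPM in GEM. In IGEL its levels were 17.3, 3813 and 33776 CPM, and in LIGEL 55.6, 3183 and 23404 CPM. PBS replicate 5 was the highest library for both genes.

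Other enzymes showed the same width. The trypsinogen gene Prss2 ran from 266 through a median of 1566 to 39494 CPM in PBS and from 9.30 through 639 to 5725 CPM in LIGEL, with GEM at 4.83, 1542 and 11510 CPM and IGEL at 4.0, 800.4 and 6367 CPM. Try4, a close relative, stood at 95.5, 982 and 38228 CPM in PBS, 0.439, 303 and 10321 in GEM, 0.0563, 592 and 4308 in IGEL, and 3.27, 333 and 4900 in LIGEL. For the elastase gene Cela2a the values were 72.2, 579 and 62988 CPM in PBS, 0.849, 508 and 17046 in GEM, 0.310, 524 and 3858 in IGEL, and 2.63, 292 and 5817 in LIGEL. The medians of the 4 groups lay far closer together than the libraries within any group.

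Among the fat-digesting enzymes, pancreatic lipase, Pnlip, had the widest range, 14.6, 808 and 58458 CPM in PBS, 0.263, 316 and 19553 in GEM, 0.0563, 644 and 7399 in IGEL, and 0.456, 294 and 5798 in LIGEL. Its cofactor colipase, Clps, reached 19.5, 320.0 and 18797 CPM in PBS, 0.146, 90.3 and 3647 in GEM, 0.169, 149 and 1547 in IGEL, and 0.697, 86.9 and 1311 in LIGEL. Cel, the bile-salt-stimulated lipase, reached 98.6, 980 and 35321 CPM in PBS, 0.731, 489 and 12189 in GEM, 1.07, 600 and 6536 in IGEL, and 7.85, 404 and 5105 in LIGEL. In all 3 genes the groups overlapped, and IGEL had a higher median than GEM.

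The ribonuclease gene Rnase1 stood at 49.4, 448 and 16262 CPM in PBS, 0.293, 213 and 4027 in GEM, 0.169, 212 and 2447 in IGEL, and 1.13, 120 and 1560 in LIGEL. Gp2, a membrane protein of the zymogen granule, stood at 84.0, 449 and 11173 CPM in PBS, 0.0585, 343 and 3541 in GEM, 0.225, 255 and 3228 in IGEL, and 1.85, 146 and 1542 in LIGEL. Spink1, a trypsin inhibitor packed with the enzymes, stood at 4.35, 34.9 and 1289 CPM in PBS, 0.117, 45.0 and 190.0 in GEM, 0.0563, 18.9 and 70.4 in IGEL, and 0.0536, 12 and 60.0 in LIGEL. These genes too overlapped between all groups.

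**Figure D1:**
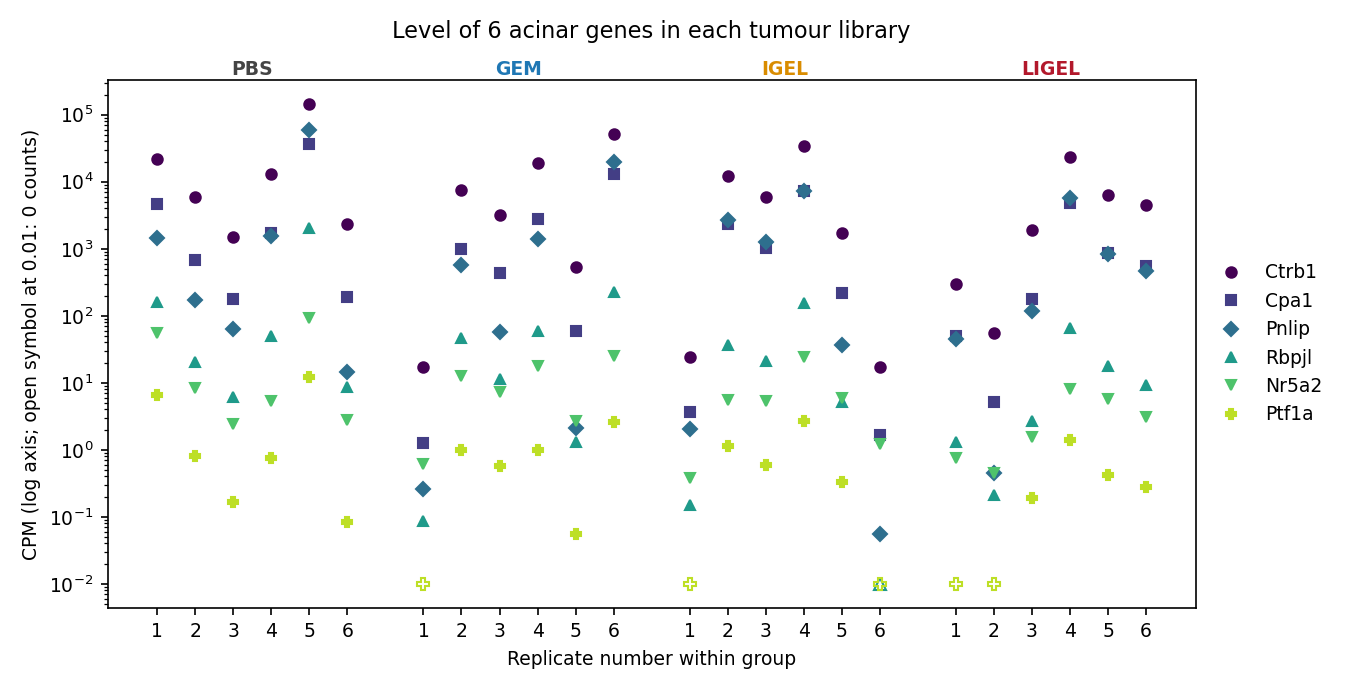
Levels of 6 acinar genes (CPM, log axis) in each of the 24 libraries, by group and replicate number, 1 symbol per library and gene. In TMM-scaled CPM all 6 genes are highest in PBS replicate 5, which for Nr5a2 depends on the TMM factor of 0.548 of that library. Nr5a2 had 1369 raw counts there and 1907 in PBS replicate 1, with total counts of 27.1 and 35.0 M. Open symbols at 0.01 stand for 0 counts, which Ptf1a shows in 5 libraries and Rbpjl in IGEL replicate 6.

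Per kb of gene length, Ctrb1 was the most abundant of the 33 genes in 24 of 24 libraries, with a median of 5854 CPM per kb. The trypsinogen gene Prss2 followed at 1284 CPM per kb, then Try5, another trypsinogen gene, at 1052, the lipase-related gene Pnliprp1 at 641 and Try4 at 638 CPM per kb. Cpa1 was the sixth at 349 CPM per kb, ahead of Cel at 284. Next came the elastase genes Cela3b at 231 and Cela2a at 227, the carboxypeptidase gene Cpb1 at 218 and Pnlip at 216 CPM per kb. Prss2 exceeded Try5 in 21 of 24 libraries and Cpa1 exceeded Cel in 23 of 24. Pnliprp1 exceeded Try4 in 14 of 24 and Cpb1 exceeded Pnlip in 8 of 24, so these neighbours have no stable order.

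At the lower end stood the transcription factors, with medians of 2.53 CPM per kb for Rbpjl, 1.04 for Bhlha15, 0.925 for Nr5a2, 0.842 for Gata4 and 0.330 for Ptf1a, the lowest of the 33. The enzyme genes Prss1 (1.04 CPM per kb) and Ctrc (0.493 CPM per kb) lay among them. Ranked by group medians, the order of the 33 genes was much alike between groups, with Spearman correlations of 0.954 to 0.993 across genes, and 8 to 10 of the 10 leading genes were shared by any pair of groups. Between single libraries the correlation was lower, with a median of 0.914 and a lowest value of 0.556, which was 0.827 without the 4 thin libraries. Genes are not independent replicates, so these correlations are descriptions. Ranking by the mean in place of the median kept 7 of the 10 leading genes.

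**Figure D2:**
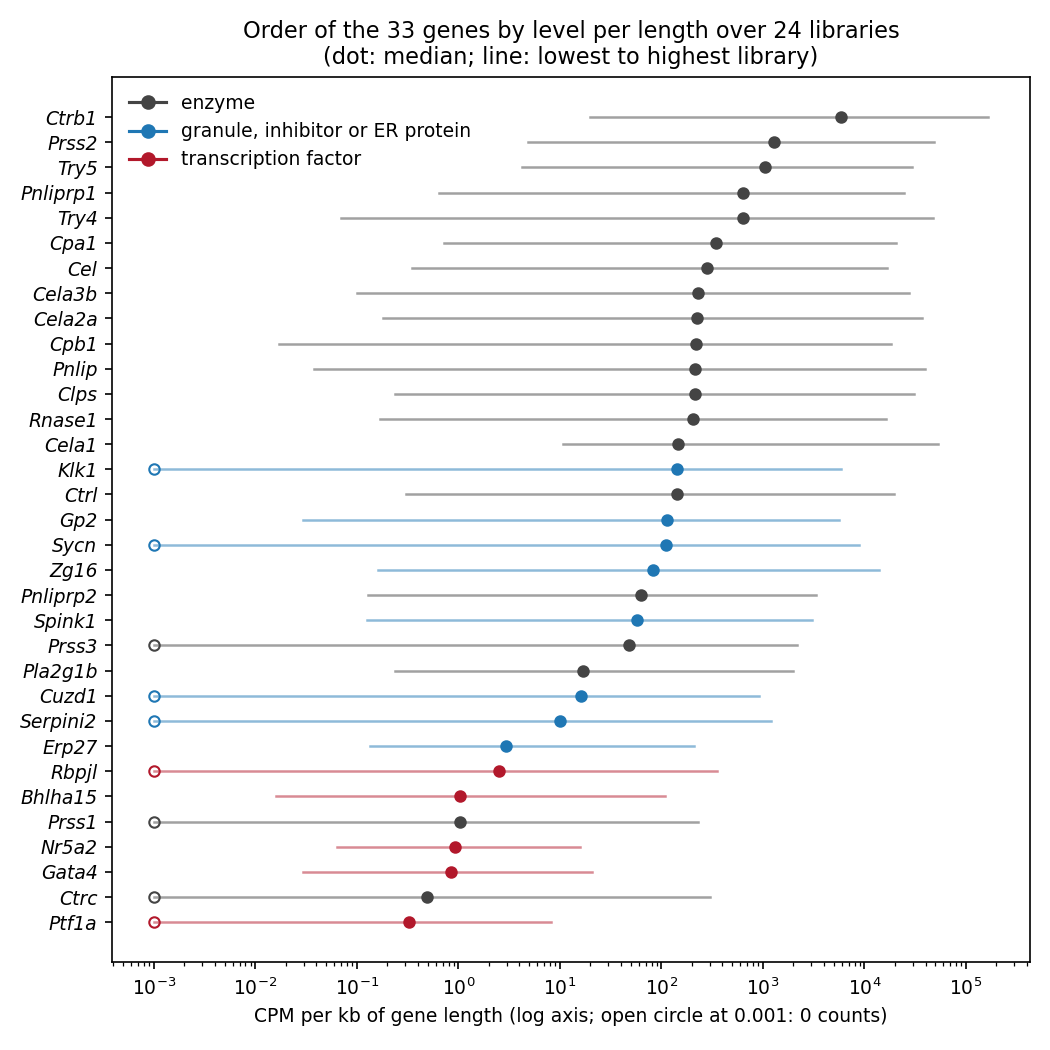
The 33 genes ordered by median level over 24 libraries (CPM per kb of gene length, log axis). Dots are medians and lines run from the lowest to the highest library, with open circles at 0.001 for 0 counts. Ctrb1 leads at 5854 CPM per kb and Ptf1a is last at 0.330.

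Counts of close relatives carry a further uncertainty. Of the distinct 50-base stretches of the GENCODE M21 transcripts, 66.1% of those of Prss3, 65.6% of those of Try4, 54.9% of those of Prss1 and 47.6% of those of Try5 occur in transcripts of another gene, mostly other trypsinogen genes, against 7.83% for Prss2. The levels of Prss1, Prss3, Try4 and Try5 are therefore uncertain. The share was 19.2% for Cela3b, shared with Cela3a, and 24.0% for Klk1, a kallikrein gene with close relatives. Ctrc (chr4:141814962-141846359, minus strand, mm10) contains the whole of Cela2a (chr4:141814962-141826160) on the same strand, and 305 of its 1428 exon bases are also Cela2a exon. Reads there cannot be assigned to 1 of these genes, so the low Ctrc counts are uncertain. Genes on the opposite strand overlap Ptf1a, Cel, Zg16, Klk1, Ctrc, Cela2a, Sycn and Rbpjl, and the pair Cuzd1 and Fgfr2 shares a span but 0 exon bases. Whether the counting used strand is not given in the sources used here, so reads of such partners may not be separable.

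The enzyme and granule genes moved together closely. Over the 378 pairs of the 28 genes that are not transcription factors, the median Pearson correlation of log2 CPM across the 24 libraries was 0.972, with a range of 0.829 to 0.998, and 87.0% of pairs exceeded 0.9. The median was 0.977 after centring on group means and 0.969 without the 4 thin libraries. All genes share the same libraries, so these values carry no p. Rnase1 followed Cpa1 most closely, with an SD of the log2 ratio to Cpa1 of 0.353 over 24 libraries. Without the 4 thin libraries Pnliprp2 was closest, at 0.219, ahead of Rnase1 at 0.232. The least alike was Ctrc, whose median correlation with the other 27 was 0.879 and whose counts were 0 or few in many libraries.

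The make-up of the acinar counts still varied between libraries. Over the 20 libraries with at least 200 Cpa1 counts, the share of Pnliprp2, a lipase-related gene, in the counts of the 28 genes varied least, with a ratio of 1.63 between its highest value, in IGEL replicate 4, and its lowest, 0.621% in PBS replicate 6. Cpa1 ranged from 3.50% to 6.61%. Ctrb1 ranged from 17.6% in PBS replicate 5 to 46.1% in GEM replicate 5. Pnlip ranged from 0.182% in GEM replicate 5 to 8.67% in GEM replicate 6, a ratio of 47.5, and Clps from 0.359% to 2.29%, a ratio of 6.37. Among these 20, PBS replicate 5, the library richest in acinar RNA, had the smallest share of Ctrb1 and the largest of Cela1. The share of Cela1, an elastase gene, was 14.9% there and lowest in PBS replicate 2, at 1.23%. In the 4 thin libraries the Cela1 share was higher still, from 19.3% in LIGEL replicate 2 to 42.5% in GEM replicate 1. The share of Spink1 ran from 0.0609% in IGEL replicate 4 to 0.667% in PBS replicate 6.

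**Figure D3:**
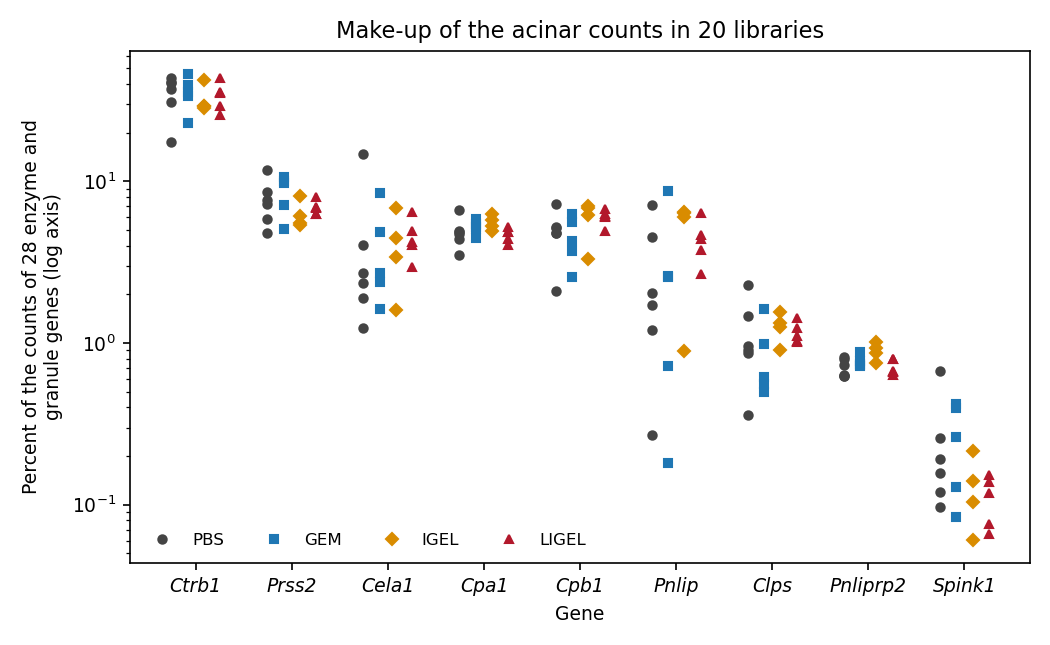
Percent of the counts of the 28 enzyme and granule genes held by 9 of them (log axis) in the 20 libraries with at least 200 Cpa1 counts, 1 symbol per library, groups side by side. The highest and lowest shares differ by a ratio of 1.63 for Pnliprp2 and 1.89 for Cpa1, while Pnlip runs from 0.182% to 8.67% within GEM.

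No group difference of the 33 genes passed edgeR's test. In its quasi-likelihood fit over all 24 libraries, 0 of 33 genes reached an adjusted p under 0.05 (Benjamini-Hochberg over all genes) in any of the 6 contrasts, and 0% of all 19253 genes tested were called (0 genes). At an unadjusted p under 0.05, 0 of the 33 passed in GEM against PBS, where 2.89% of all genes passed in the lower direction. In IGEL against PBS 2 passed against 9.25% of all genes, and in LIGEL against PBS 8 of 33 passed against 14.2%. In the higher direction 0 of 33 passed in these contrasts, where 1.92%, 5.79% and 6.28% of all genes did. Between treated groups 0 of 33 passed in either direction, against 0.878% of all genes higher and 0.706% lower for IGEL with GEM, 0.831% and 2.33% for LIGEL with GEM, and 0.426% and 0.831% for LIGEL with IGEL. The smallest adjusted p of the 33 was 0.137, for Gata4 and Nr5a2 in LIGEL against PBS. All 33 point estimates were below 0 in the 3 contrasts with PBS, with median log2 fold changes of -1.74 in GEM, -2.44 in IGEL and -3.08 in LIGEL. The medians over all genes were -0.02, -0.02 and -0.03. These contrasts share the PBS samples. Between treated groups the medians were -0.78 for IGEL with GEM, -1.31 for LIGEL with GEM and -0.60 for LIGEL with IGEL, and they became 0.98 and 0.43 without GEM replicate 6 and 0.61 without IGEL replicate 4.

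The sizes and errors of single genes show the width of this spread. The log2 fold change of Cpa1 was -1.31 ± 1.73 (SE) in GEM, -2.0 ± 1.76 in IGEL and -2.75 ± 1.81 in LIGEL, each against PBS with 6 libraries a group. For Pnlip it was -1.52 ± 2.15, -2.44 ± 2.22 and -3.09 ± 2.28. None of the 6 libraries with A1 to A3 columns is a PBS library, and with a term for them the value in GEM was 0.60 for Cpa1 and 0.0777 for Pnlip. Among the factors in LIGEL against PBS, Rbpjl was at -4.55 ± 1.81, Gata4 at -3.66 ± 1.25, Bhlha15 at -3.27 ± 1.64, Ptf1a at -3.13 ± 1.34 and Nr5a2 at -3.08 ± 1.06. DESeq2 gave an adjusted p to 19 of the 33 genes in that contrast and called 4 of them lower, against 5.45% of all genes. They were Gata4 (adjusted p = 0.0226), Nr5a2 (0.0278), Rbpjl (0.0402) and Spink1 (0.0490). All 5 factors had an adjusted p by DESeq2, and the genes without one were all enzyme or granule genes. Those genes could not be called, and their log2 fold changes ran from -2.67 for Cel to -4.83 for Ctrc.

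In GEM and IGEL the direction of the median rested on PBS replicate 5. Without that library, the median log2 fold change of the 33 genes against PBS was 0.97 in GEM, 0.40 in IGEL and -0.36 in LIGEL, and 0 of 33 were called. For the 28 enzyme and granule genes alone it was 1.17, 0.58 and -0.09, and for the 5 factors -0.45, -1.06 and -2.10. Bhlha15 and Rbpjl in GEM moved to 0.14 and 0.22. Without PBS replicate 5, edgeR called 0 genes in the GEM contrast with PBS, 18 in the IGEL contrast and 173 in the LIGEL contrast. In IGEL these were 0.0922% of the genes tested, all lower, and in LIGEL 0.748% lower and 0.138% higher.

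The transcription factors followed the enzymes across libraries. The correlation of log2 CPM with Cpa1 over the 24 libraries was 0.985 for Rbpjl (Spearman 0.988), 0.943 for Bhlha15 (0.989), 0.934 for Ptf1a (0.970), 0.902 for Nr5a2 (0.901) and 0.857 for Gata4 (0.922). Each of these had a two-sided permutation p of 1e-05, raw and adjusted over the 5 factors, the smallest that 100000 resamples can give. Without GEM replicate 1 and IGEL replicate 6, the libraries farthest from the median of Cpa1, Pearson's r was 0.982, 0.941, 0.941, 0.922 and 0.830 in the same order. Without the 4 thin libraries it was 0.976, 0.980, 0.948, 0.881 and 0.870.

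Within single groups of 6 the relation held for each factor by Pearson's r. It ranged from 0.854 for Gata4 in LIGEL to 0.997 for Rbpjl in IGEL, with exact permutation p-values of 0.00278 (the smallest 6 libraries allow) to 0.0306. By Spearman's rho, Nr5a2 in IGEL did not pass, at 0.771 with an exact p of 0.103. In the 6 libraries with A1 to A3 columns, Gata4 had an r of 0.758 (exact p = 0.125, adjusted 0.125) and Ptf1a 0.899 (exact p = 0.0667, adjusted 0.0833), so neither passed there. Rbpjl, Bhlha15 and Nr5a2 did by Pearson's r, at 0.987, 0.966 and 0.922, although Nr5a2 did not by Spearman's rho (0.829, exact p = 0.0583). In the other 18 libraries all 5 lay between 0.846 and 0.985. In all, 50 such relations were computed, with p adjusted over the 5 factors of each set of libraries.

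**Figure D4:**
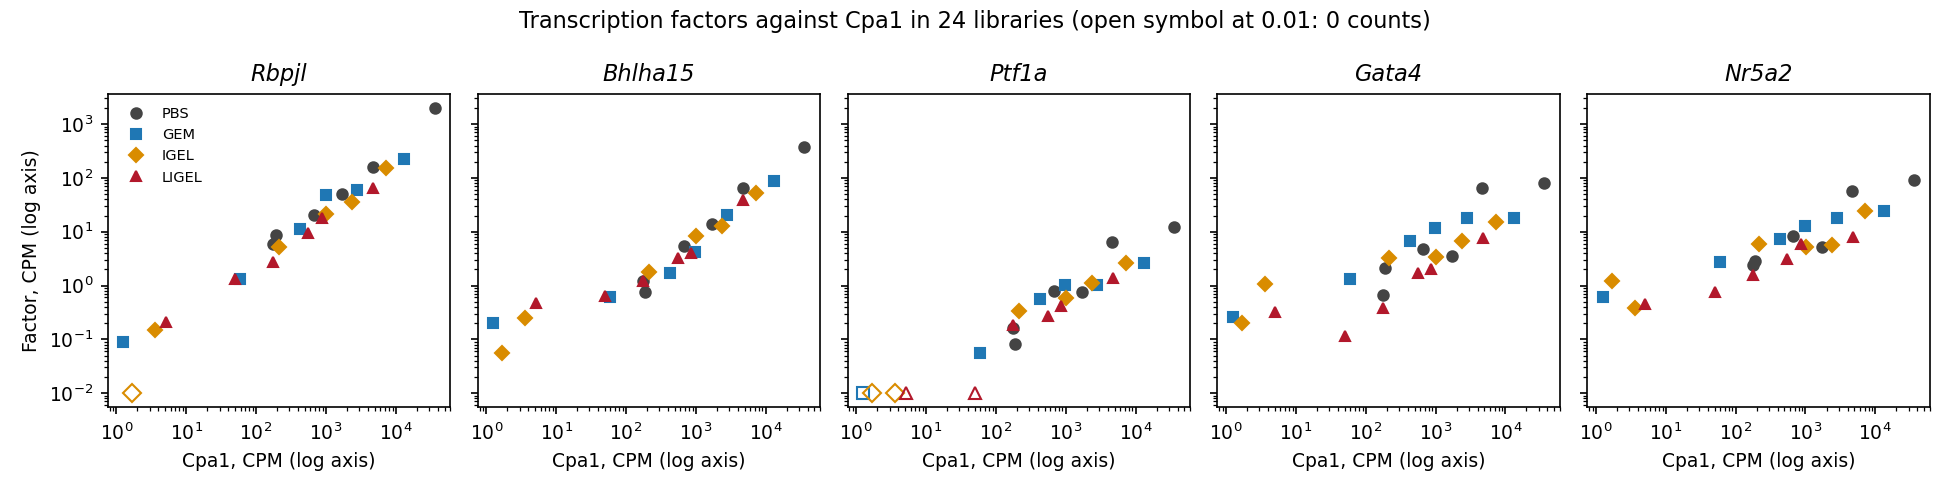
Level of each of the 5 transcription factors against Cpa1 (both CPM, log axes) in 24 libraries, coloured by group, with open symbols at 0.01 for 0 counts. Rbpjl has the highest slope, while Gata4 and Nr5a2 climb less steeply and Bhlha15 is flatter among the 4 thin libraries at the low end of Cpa1.

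Slopes on Cpa1 describe how steeply each factor followed. In a model with the 4 group means and the log2 CPM of Cpa1, the slope is the log2 change of a gene per doubling of Cpa1, and a gene that keeps a constant ratio to Cpa1 has a slope of 1. All 5 factors were called rising by edgeR's quasi-likelihood test (adjusted p from 2.9e-17 for Rbpjl to 1.3e-06 for Gata4), as were all 27 enzyme and granule genes other than Cpa1. Of all 19252 genes tested, 18.2% were called rising and 11.7% falling, and the median slope over them was 0.004. With Pnlip in place of Cpa1 as the reference, the 5 factors were still called rising, with slopes of 0.67 for Rbpjl, 0.61 for Bhlha15, 0.53 for Ptf1a, 0.39 for Gata4 and 0.32 for Nr5a2.

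Rbpjl had a slope of 0.96 (95% interval 0.90 to 1.03), which includes 1, and of 0.91 (0.86 to 0.97) without PBS replicate 5, which does not. Its lowest, median and highest levels were 6.04, 34.9 and 2013 CPM in PBS, 0.0878, 29.2 and 224 in GEM, 0, 13.1 and 154 in IGEL, and 0.214, 6.02 and 64.9 in LIGEL. In PBS replicate 5 it was more abundant than in any other library, and it was at 0 counts in IGEL replicate 6, which allows up to 3 counts. Bhlha15 had a slope of 0.85 (0.74 to 0.97), and 1.03 (0.94 to 1.12) without the 4 thin libraries. Its levels were 0.749, 9.52 and 380 CPM in PBS, 0.205, 2.96 and 87.2 in GEM, 0.0563, 4.96 and 52.6 in IGEL, and 0.482, 2.22 and 38.7 in LIGEL. The groups overlapped for both genes.

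Ptf1a had a slope of 0.79 (0.67 to 0.91), and 0.75 (0.60 to 0.91) without the thin libraries. Its levels were low everywhere, 0.0832, 0.779 and 12.3 CPM in PBS, 0, 0.786 and 2.60 in GEM, 0, 0.467 and 2.68 in IGEL, and 0, 0.232 and 1.40 in LIGEL. It was at 0 counts in the 4 thin libraries and in LIGEL replicate 1. In raw counts Ptf1a had 220 in PBS replicate 1 and 182 in PBS replicate 5, against 158577 and 533299 for Cpa1. In TMM-scaled CPM, Ptf1a was higher in PBS replicate 5, at 12.3 CPM against 6.48 in PBS replicate 1. The size of this gap depends on the TMM factor of 0.548 of PBS replicate 5. Total counts were 27.1 M there and 35.0 M in PBS replicate 1. Cpa1 stood at 36023 and 4671 CPM in these 2 libraries.

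Gata4 and Nr5a2 had the lowest slopes of the 32 genes, 0.52 (0.39 to 0.65) and 0.45 (0.36 to 0.54). Without the thin libraries these were 0.71 (0.53 to 0.89) and 0.55 (0.42 to 0.69), still below 1 over the whole interval. Nr5a2 reached 2.43, 6.78 and 92.5 CPM in PBS, 0.614, 10.1 and 24.8 in GEM, 0.379, 5.46 and 24.6 in IGEL, and 0.456, 2.31 and 8.10 in LIGEL. Gata4 reached 0.656, 4.10 and 80.4 CPM in PBS, 0.263, 9.12 and 18.1 in GEM, 0.197, 3.29 and 15.2 in IGEL, and 0.116, 1.03 and 7.78 in LIGEL. Both were found in every library, also where Ptf1a was at 0. In IGEL replicate 6, Nr5a2 had 44 counts beside 60 of Cpa1.

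Among the enzymes and granule proteins, slopes ran from 0.66 for Erp27, an endoplasmic reticulum protein, to 1.48 for Ctrc. Pnlip, at 1.28 (1.13 to 1.42), Cpb1, at 1.14 (1.08 to 1.21), and Clps, at 1.11 (1.05 to 1.18), rose more than Cpa1. Ctrb1, at 0.90 (0.85 to 0.95), Prss2, at 0.89 (0.84 to 0.94), Try5, at 0.87 (0.80 to 0.93), and Spink1, at 0.79 (0.69 to 0.90), rose less. Cela1 depended on the thin libraries, with a slope of 0.76 (0.58 to 0.93) over 24 libraries and 1.22 (1.07 to 1.38) over 20. It held 871 to 1104 counts in the thin libraries, where Cpa1 had 43 to 190. Erp27 moved from 0.66 to 0.82.

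**Figure D5:**
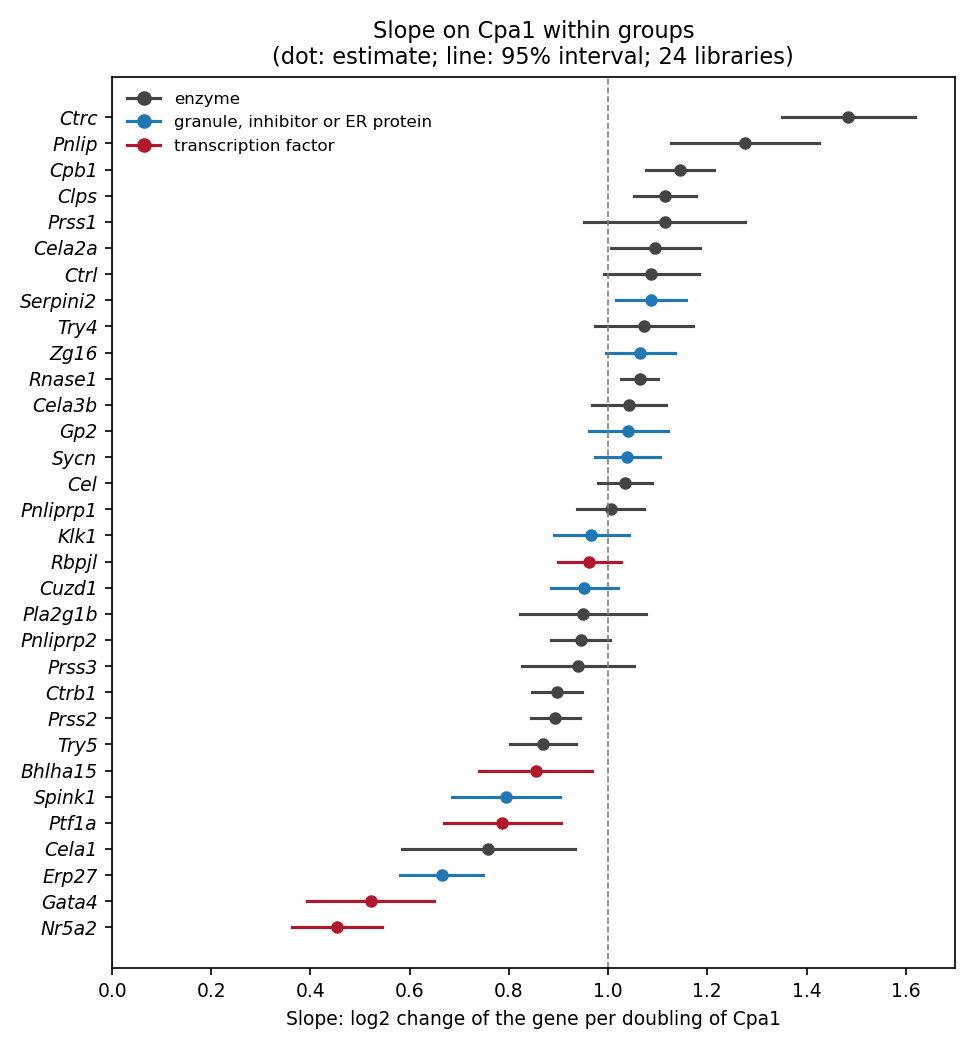
Slope of 32 genes on Cpa1 within groups (log2 change per doubling of Cpa1), with 95% intervals, over 24 libraries; the dashed line marks a slope of 1. Nr5a2 (0.45) and Gata4 (0.52) have the lowest slopes, and Rbpjl (0.96) lies among the enzymes.

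The ratio of Rbpjl to Cpa1 had its highest group median in PBS. Rbpjl had 28.8 to 55.9 counts per 1000 counts of Cpa1 in the 6 PBS libraries. Without the thin libraries, it had 17 to 47.7 in GEM, 15.3 to 24.1 in IGEL and 13.5 to 26.1 in LIGEL. Leaving these libraries out was chosen after the data had been seen. With them, all groups overlapped PBS, and the highest values were 69.8, 42.0 and 42.1, each from 8 or fewer Rbpjl counts. In the fit with Cpa1 as a covariate, a setting added after the data had been seen, the log2 difference of Rbpjl against PBS was -0.52 ± 0.25 (SE) in GEM, -0.93 ± 0.26 in IGEL and -1.13 ± 0.27 in LIGEL. The edgeR quasi-likelihood adjusted p in LIGEL was 0.160 and in IGEL 0.495, so none passed.

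For Gata4 and Nr5a2 in LIGEL, the difference at equal Cpa1 did not pass either. The log2 differences against PBS were -2.08 ± 0.63 for Gata4 and -1.50 ± 0.45 for Nr5a2 (edgeR quasi-likelihood adjusted p = 0.187 for each), and -1.50 ± 0.45 for Spink1 (adjusted p = 0.187). Gata4 had 1.62 to 3.05 counts per 1000 of Cpa1 in 5 LIGEL libraries and 2.05 to 13.7 in PBS, which overlap, and 63.2 in the thin LIGEL replicate 2. At equal Cpa1, 0 of the 33 genes were called in any contrast, against 0.0156% of all genes higher and 0.00519% lower in LIGEL against PBS. Those 4 genes were Trim26 (0.45), Slc39a13 (0.51) and Perm1 (0.79), which were higher, and Fbxl13 (-2.58), which was lower, as log2 differences; they were named after their values had been seen.

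Other acinar secretory genes rose with Cpa1 as well. Of 24 tested, 23 were called rising and 0 falling, among them 2210010C04Rik (slope 1.06), the amylase gene Amy2b (1.07) and Tmed6 (1.09). The exception was the water channel gene Aqp8 at 0.03, named after its value had been seen. Of 16 genes of regulated secretion and its receptors, 9 were called rising and 1 falling. The smallest p belonged to receptors that acinar cells use, Cckar for cholecystokinin (0.82), Chrm3 for acetylcholine (0.41) and Vipr1 for vasoactive intestinal peptide (0.40), and to the granule GTPase gene Rab26 (0.54). The gene that fell was Itpr3, a calcium channel of the endoplasmic reticulum, at -0.05.

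Of 17 partner and other pancreatic transcription factors tested, 10 were called rising and 3 falling. Klf15 (0.76) and Pdx1 (0.58) were among those with the smallest p. The partners of PTF1 that other cells also use did not follow: Tcf12 and Rbpj were called falling at -0.03 and -0.04, and Tcf3 was at -0.04 without passing (edgeR adjusted p = 0.0654). Gata6, the relative of Gata4, was at -0.02 and was not called. These 4 genes were singled out after their values had been seen.

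Markers of islet cells and some of duct cells also rose with Cpa1. Of 11 islet genes tested, 10 were called rising and 1, Isl1, falling, with a median slope of 0.54 (Sst 0.60, Pcsk2 0.64, Chga 0.47, Pcsk1 0.44), and the list summed to 10.6 to 1879 CPM across the libraries. Of 13 duct and epithelial genes, 7 were called rising and 2 falling, with Tff2 at 1.02, Muc1 at 0.38 and Prom1 at 0.51 among the former. The 2 that fell were the keratin gene Krt8 (-0.06) and the duct factor gene Sox9 (-0.07), named after their values had been seen. Of 12 stromal and leukocyte genes, 7 were called rising with slopes of at most 0.19. Among 14 plasma and B cell genes, 2 were called rising, Derl3 (0.55) and Mzb1 (0.22), and 1 falling, Sdc1 (-0.07). This list was included because plasma cells also express Bhlha15, and its sum ran from 232 to 568 CPM. Of 4 liver, 6 gut and stomach, 3 skeletal muscle and 1 fat gene tested, 3, 2, 0 and 0 were called rising. The part of these other cells in the slopes of the 33 genes was not tested.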

How the data were processed

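Bulk RNA-seq of 24 mouse samples was read from 1 deposited table of raw counts per gene, which the authors made with HISAT2, featureCounts of the Subread package and mm10, per the submitters' processing notes. Versions, the annotation release and strand use are not given in the sources used here. Total counts were 27.1 to 40.5 M (1e6) per library. The Wilson interval of a share of counts covers counting error only, while the intervals of slopes include the spread between libraries.

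The 33 genes and all gene lists were chosen with earlier results of these data known. Genes were filtered with filterByExpr (minimum count 10, minimum total 15), which kept 19253 of 54532 genes and removed 0.0666% of the counts. edgeR 4.0.16 (R 4.3.3, limma 3.58.1) fitted its robust quasi-likelihood model to all 24 libraries with TMM factors (0.548 in PBS replicate 5, 0.850 in GEM replicate 6). It tested 6 group contrasts and, in a second model, the slope on log2 CPM of Cpa1 within groups, with Benjamini-Hochberg adjustment over all genes and a threshold of 0.05. In the second model Cpa1 is its own covariate and has no test. Log2 CPM used a prior count of 2. Correlations used permutation tests in scipy 1.17.1 (100000 resamples, exact with 6 libraries). The models were tested on simulated data with changes only in genes of below-median spread, which does not show how well changes in widely varying genes are found. DESeq2 1.42.0, other scalings, no filter, libraries left out, a term for the A1 to A3 columns and other reference enzymes were alternatives. The fit at equal Cpa1 and the fits without the 4 thin libraries were chosen after seeing the data.

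Any of the 33 genes could be named. Values per group were given for 11 enzyme and granule genes and the 5 factors, contrasts for Cpa1, Pnlip and the factors, and up to 4 genes of each other list by the p of their slope. Promoter sequences are from RefSeq (GRCm38.p6), and 7 of the 33 genes had none in the table. Shared stretches and overlaps were computed from GENCODE M21. Some genes of the other lists that this rule would name are not reported here.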

Additional observations from a re-analysis of the deposited data

Results flagged for a closer look

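In 3 groups the highest library stood apart from the other 5 in the share of counts on the 33 genes, by Dixon's test at its 95% critical value. PBS replicate 5 held 45.1%, and the next PBS library 6.88%. GEM replicate 6 held 19.2%, and the next 5.39%. LIGEL replicate 4 held 8.79%, and the next 1.93%. Of 68 sets of 6 values checked, 3 stood out in this way, all of them shares, and chance gives about 1 in 20. The shares were checked as percentages and not on a log scale, unlike the gene levels, so the 2 kinds of set are not alike. No set of log2 CPM values of the 16 genes with values per group did.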

How the results depend on the processing

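Leaving out PBS replicate 5 gave the highest of the values against PBS. Leaving out each library in turn, the log2 fold change in GEM ran from -3.16 to 0.97 for Cpa1, -4.78 to 2.45 for Pnlip, -4.08 to 0.22 for Rbpjl and -3.93 to 0.14 for Bhlha15. In IGEL it ran from -3.32 to 0.29 for Cpa1 and -3.69 to 1.54 for Pnlip, and in LIGEL from -5.23 to 0.89 for Pnlip. Genes called ran from 0 to 18 in IGEL and from 0 to 173 in LIGEL against PBS (173 without PBS replicate 5, 2 without PBS replicate 4, 4 without GEM replicate 4). Genes with a called slope ran from 4864 to 6271, against 5751 with all libraries.

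DESeq2 called 46 genes in IGEL and 1229 in LIGEL against PBS, where edgeR called 0 in each. A term for the A1 to A3 libraries put GEM against PBS at 0.60 for Cpa1 and 0.0777 for Pnlip. With Cpa1 as a covariate, Pnlip was at 1.12 in IGEL and 1.33 in LIGEL, Cpa1 at 0.00415 in LIGEL by construction, and 4 genes were called in LIGEL. Without the A1 to A3 libraries 3282 slopes were called, with fewer samples. The cause of the other shifts was not tested. The 5 factors kept rising, called slopes in all 60 values under another setting (5 in each fit) and all 120 with a library left out.

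Replicate numbers did not pair the libraries: 14 of 36 same-numbered pairs correlated above 0.1, with a median of -0.06, and 6 of 24 libraries correlated best with their own number. With the replicate number as a block, 0 genes were called in each contrast, 4677 slopes were called, and the median log2 fold changes of the 33 genes against PBS were -2.78, -2.79 and -4.31. Where Ptf1a has 0 counts, depth limits its level to under 3 counts.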
